A study of Mus musculus with 41 samples.

Results

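The regions described here were the broad H3K4me3 domains of mouse gastrocnemius muscle (GAS), the 500 widest of the 27814 H3K4me3 peaks called in this tissue on chromosomes 1 to 19. They were chosen by their width alone, with ties ordered by total signal. The profiles came from CUT&Tag, in which a transposase tethered by an antibody cuts and tags the DNA around a histone modification. GAS was whole calf muscle of untreated female mice aged 8 to 12 weeks, of strain C57BL/6 in the labels and of its J substrain in the methods, so its nuclei came from muscle fibres and from every other cell of the tissue. H3K4me3 was also profiled in 3 other cell types. PIM were macrophages sorted by CD45, CD11b, F4/80 and CD64 from the calf muscle of mice of this strain 2 days after ischemia was set by tying off the femoral artery. ESC-ser and ESC-2i were embryonic stem cells of the E14 line, kept in serum with LIF or in the inhibitors of 2i medium with LIF. Each of these 4 H3K4me3 groups held 2 samples, which the authors merged before calling peaks, so each group is a single list of peaks and no spread between replicates can be given.

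H3K4me3 is deposited around the start sites of genes in use, and most of its peaks are narrow. A minority of peaks stretch over several kilobases, and such broad domains are known from many tissues to lie over genes that set the identity of the cell. H3K27ac marks active promoters and enhancers, H3K27me3 is the mark of Polycomb repression, and H3K18la is a lactyl group on lysine 18 of histone H3, derived from lactate. CpG islands, stretches rich in the CG dinucleotide, recruit the enzymes that write H3K4me3 in nearly every cell.

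The upstream stretches of 6 domains are shown because CG content differed, at the median, between domains seen in GAS alone and those seen in all 4 H3K4me3 lists. They belong to the 3 widest domains of each kind with a RefSeq promoter entry (build GRCm38.p6) whose start site lay inside and less than 50% multi-copy sequence. Each runs 5′ to 3′ on the strand of its gene, which was the minus strand in every case, and ends at the base before the RefSeq start site. Capitals mark the CG dinucleotides.
Asb2, H3K4me3 in GAS alone, chr12:103356002-103356251: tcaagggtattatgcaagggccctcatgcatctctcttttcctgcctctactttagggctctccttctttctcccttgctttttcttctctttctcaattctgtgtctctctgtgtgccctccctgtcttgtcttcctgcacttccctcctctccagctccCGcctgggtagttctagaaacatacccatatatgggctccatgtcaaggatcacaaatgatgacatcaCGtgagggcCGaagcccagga
Myl1, H3K4me3 in GAS alone, chr1:66945057-66945306: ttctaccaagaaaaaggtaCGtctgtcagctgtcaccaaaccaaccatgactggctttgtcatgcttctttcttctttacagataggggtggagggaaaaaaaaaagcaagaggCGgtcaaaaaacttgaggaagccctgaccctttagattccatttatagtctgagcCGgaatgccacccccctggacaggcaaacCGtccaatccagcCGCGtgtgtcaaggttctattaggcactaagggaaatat
Atp2a1, H3K4me3 in GAS alone, chr7:126463074-126463323: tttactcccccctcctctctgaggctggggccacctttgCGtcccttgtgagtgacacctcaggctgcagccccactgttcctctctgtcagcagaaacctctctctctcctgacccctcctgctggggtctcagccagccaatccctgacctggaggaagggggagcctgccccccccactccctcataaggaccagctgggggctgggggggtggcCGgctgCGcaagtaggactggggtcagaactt
Bcl6, H3K4me3 in all 4 lists, chr16:23988853-23989102: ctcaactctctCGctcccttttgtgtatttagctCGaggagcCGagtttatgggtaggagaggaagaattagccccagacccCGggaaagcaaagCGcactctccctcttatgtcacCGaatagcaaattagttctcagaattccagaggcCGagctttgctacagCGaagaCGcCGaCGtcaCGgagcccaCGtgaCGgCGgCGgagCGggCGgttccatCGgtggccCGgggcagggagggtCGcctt
Zeb2, H3K4me3 in all 4 lists, chr2:45110278-45110527: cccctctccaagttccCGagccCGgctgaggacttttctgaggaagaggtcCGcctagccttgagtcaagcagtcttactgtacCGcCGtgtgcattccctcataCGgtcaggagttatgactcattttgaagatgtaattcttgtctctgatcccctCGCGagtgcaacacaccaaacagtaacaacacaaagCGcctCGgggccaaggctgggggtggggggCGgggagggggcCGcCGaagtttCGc
Nmrk2, H3K4me3 in all 4 lists, chr10:81202038-81202287: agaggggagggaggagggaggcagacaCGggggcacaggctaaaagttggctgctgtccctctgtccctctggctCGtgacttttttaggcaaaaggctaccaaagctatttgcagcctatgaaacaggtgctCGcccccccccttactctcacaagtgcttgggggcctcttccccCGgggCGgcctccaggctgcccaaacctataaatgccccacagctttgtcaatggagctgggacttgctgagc

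The 250 bases held 3 CG dinucleotides at Asb2, which encodes a ubiquitin ligase subunit of muscle, 6 at Myl1, a myosin light chain of fast fibres, and 3 at Atp2a1, the calcium pump of the sarcoplasmic reticulum. They held 21 at Bcl6, a transcriptional repressor, 14 at Zeb2, a zinc finger homeobox repressor, and 5 at Nmrk2, a nicotinamide riboside kinase of muscle. Nmrk2 was therefore as poor in CG as the GAS-only examples although a peak lay over its domain in every list. Over all single-copy domains with a coding start site and a RefSeq entry, the median was 4 CG dinucleotides in 31 domains without H3K4me3 in the other 3 lists and 18 in 203 domains with it in all of them. The median over all 32851 RefSeq promoters was 6.

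The 500 domains were between 5754 and 48602 bp wide, with a median of 6885.5 bp, and the other 27314 GAS peaks had a median of 1452 bp. The last 2 domains inside the limit were a peak without a coding gene on chromosome 4, 5756 bp wide, and Myom1, which encodes an M-band protein, 5754 bp. The first 2 outside it were a peak of 5746 bp, also on chromosome 4, and Sema6a, a guidance ligand, with 5741 bp. The domains held 7.72% of the bases of the GAS H3K4me3 peaks. The 500 widest peaks of the other lists began at 7445 bp in ESC-ser, 6033 bp in ESC-2i and 7330 bp in PIM, so a domain ranked 500th in GAS was narrower than the peak of the same rank in each of them. With chromosome X, the lists covered 52.8 Mb in GAS, 40.9 Mb in ESC-ser, 49.8 Mb in ESC-2i and 65.1 Mb in PIM. Mean signal per base was 31.1, 66.5, 39.0 and 67.2 in the same order, and the lists hold no read numbers, so depth may differ between them. ESC were handled as whole cells and the others as nuclei, so cell type and handling cannot be told apart in comparisons with ESC.

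**Figure D1:**
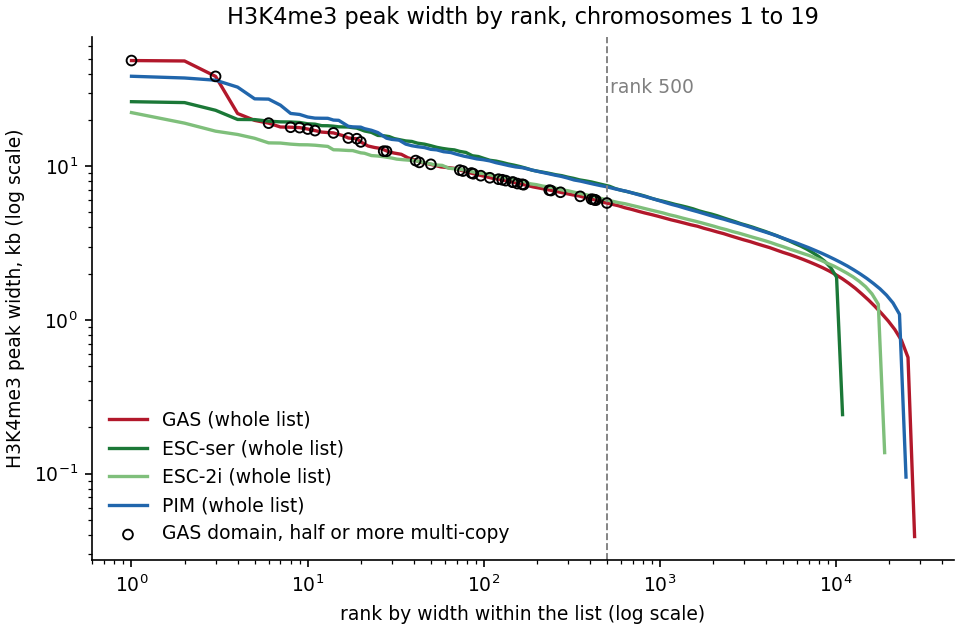
Width in kb (log scale) of the H3K4me3 peaks on chromosomes 1 to 19 against their rank by width (log scale) in GAS, ESC-ser, ESC-2i and PIM. The dashed line marks rank 500, and open circles mark the 39 GAS domains of which at least 50% was multi-copy sequence, which crowd the left end of the GAS curve.

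Several of the very widest domains lay in repeated sequence rather than at single genes. The share of 50-bp words that occur more than once in the genome was at least 50% in 39 of the 500 domains (7.8%), against 6.61% of all GAS H3K4me3 peaks, and in 11 of the 20 widest. The widest of all, 48602 bp at C130026I21Rik on chromosome 1, was 64.5% multi-copy, and the third, 38343 bp at the start of the chromosome 9 sequence with 9 predicted genes (Gm10715, Gm10717 to Gm10722, Gm11168 and Gm17535), was 86.9% multi-copy. That one domain held 46.0% of the summed signal of the 500. Sfi1 (48299 bp) and the 21995 bp next to it on chromosome 11 were only 5.16% and 15.4% multi-copy, yet H3K18la, H3K27ac and H3K27me3 of GAS each covered between 97% and 100% of them and their mean signal was 87.9 and 93.3 per base, against a median of 28.3 over the 500. The other domains among the 10 widest were the Hoxa7, Hoxa9 and Hoxa10 domain (19840 bp), a second one at C130026I21Rik (19037 bp), Sp110 with Sp140 (17969 bp) and 3 without a coding start site. Multi-copy domains differed from the rest in their other marks: H3K18la covered a mean of 29.7% of their bases and H3K27me3 35.9%, against 81.3% and 7.36% in the 461 others. Each main result was also computed without the multi-copy domains, and the values are given where they differ.

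Most domains lay over the start of a protein-coding gene. A coding transcription start site (TSS) was inside 410 of the 500 (82.0%, 95% Wilson interval 78.4 to 85.1), against 43.4% of all GAS H3K4me3 peaks, and inside 403 of the 461 single-copy domains (87.4%). Of the 410, 359 held the TSS of 1 coding gene, 43 of 2 and 8 of 3 or more. A CpG island was inside 342 domains (68.4%, 64.2 to 72.3), against 43.0% of all peaks. A stricter island definition gave 37.0% of the domains, and the share of all peaks under it is not given. Compared with the 11663 other peaks that held a coding TSS, islands were slightly less frequent: 74.9% of the domains with a coding TSS had one against 79.2%, a difference of -4.31 percentage points (95% Newcombe interval -8.79 to -0.289). The regions of 1 list are not replicates, so these intervals cover counting error only.

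The domains reached mainly into the transcribed side of the gene. In the 359 domains with 1 coding gene, a median of 73.2% of the bases lay downstream of the TSS, and more than 50% did in 306 of them. The median reach was 5034 bp downstream and 1939 bp upstream. The next 500 peaks by width were alike in this, with a median downstream share of 71.9% over 386 peaks with 1 coding gene and reaches of 3592 and 1429.5 bp. In all 10456 other peaks with 1 coding gene the downstream share was 61.8%, more than 50% lay downstream in 7712, and the reach was 1337 bp downstream and 840 bp upstream. Myl1 reached 12725 bp downstream and 895 bp upstream, Pfkm, the phosphofructokinase of muscle, 9228 and 627 bp, and Irs1, the adaptor of the insulin receptor, 9196 and 1982 bp. The opposite was seen at Asb2, with 5341 bp downstream and 9809 bp upstream, and at Setd1b, an H3K4 methyltransferase, with 2916 and 8694 bp. At least 50% of the gene was covered in 100 domains and all of it in 39, Nmrk2 with its 3882 bp among them. These counts depend on gene length and on the width by which the domains were chosen, and other peaks were not counted in this way.

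Genes of muscle contraction and energy supply were frequent among the domains. Of the 20722 coding genes on chromosomes 1 to 19, 465 (2.24%) had a TSS in a domain. The lists below were chosen with earlier results of these data known, so the count for each is a description. In the sarcomere list it was 19 of 49 genes, led by Myl1 (13620 bp), Tpm1, a tropomyosin (11336 bp), Tnnt3, the troponin T of fast fibres (10700 bp), and Mylk2, the myosin light chain kinase of skeletal muscle (10153 bp). Ttn (8284 bp), which encodes titin, Neb (7695 bp), the thin filament ruler, Myh4 (6690 bp), the myosin of the fastest fibres, and Acta1 (6400 bp), skeletal actin, were among them too. Of the genes of calcium handling and excitation it was 8 of 34, with Atp2a1 at 12032 bp, Hrc, a calcium-binding protein of the reticulum, at 8718 bp, Jph1, which ties the reticulum to the surface membrane, at 7335 bp and Trdn, triadin, at 7254 bp. Of the glycolysis and glycogen list it was 13 of 27, the largest share of these lists, with Pfkm at 9855 bp, Ppp1r3a, the glycogen-targeting subunit of protein phosphatase, at 9800 bp, Pgm1, phosphoglucomutase, at 9703 bp and Eno3, the muscle enolase, at 9570 bp. This list also held Ckm, Ckmt2, Ampd1, Ak1 and Pdk4, which are not genes of glycolysis or glycogen. Ckm and Ckmt2, both creatine kinases, are among the 13.

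Regulators that respond to the clock or to stimulation also had broad domains. Of the circadian list it was 8 of 20, with Bhlhe40 (8286 bp), Nr1d2 (7492 bp), Nfil3 (7022 bp) and Nr1d1 (6793 bp), all repressors of the clock network. This list held Tspan4, which is not known as a clock gene and is one of the 8. Of the immediate early genes it was 12 of 36, with Nr4a1, an orphan nuclear receptor, at 9719 bp, Zfp36, an mRNA decay factor, at 8886 bp, its relative Zfp36l1 at 8172 bp and Btg1, an antiproliferative factor, at 7700 bp. Of the muscle regulators it was 16 of 57, among them Nr4a1, Eya1, a transcriptional coactivator and phosphatase (9399 bp), and Maf, a leucine zipper factor (8456 bp). Of the genes of atrophy and stress it was 10 of 30, among them Txnip, an inhibitor of glucose uptake (10563 bp), Bag3, a chaperone partner at the Z-disc (8875 bp), and Nfe2l1, a regulator of proteasome genes (7939 bp). Of the genes of insulin action it was 6 of 23, with Irs1 (11178 bp), Pde4d (8662 bp), Trib1 (7804 bp) and Foxo3 (6482 bp).

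Other lists were counted in the same way. Of 23 housekeeping genes, 1 was in a domain (4.35%, against 2.24% of all coding genes), Actb, cytoplasmic actin (9792 bp), and 22 had a GAS H3K4me3 peak at the TSS. The median width at the TSS was 3258.5 bp over these 22 genes, 5646 bp over 41 sarcomere genes, 5724 bp over 27 genes of glycolysis and glycogen and 2432 bp over the 12372 coding genes with a peak. In ESC-ser the housekeeping genes had a median of 5206 bp (20 genes), the genes of glycolysis and glycogen 5864 bp (17 genes), the sarcomere genes 3644 bp (11 genes) and all coding genes 3325 bp. The genes of glycolysis and glycogen had 2823 bp in ESC-2i (21 genes) and 4224.5 bp in PIM (16 genes). Of 53 developmental genes known as Polycomb targets, 10 were in a domain (18.9%), among them Hoxa9 and Hoxa10 in one of 19840 bp and Hoxc10 and Hoxc11 in one of 16540 bp. None of 22 pluripotency genes was in a domain. Of the markers of other cells of the tissue, those in a domain were 3 of 15 endothelial genes (20%, against 2.24% of all coding genes), namely Egfl7 with 7278 bp, Flt1 with 6333 bp and Esam with 5813 bp, 1 of 11 fibroblast genes (9.09%), Dcn, decorin, with 5841 bp, and none of the 15 macrophage, 7 smooth muscle, 7 adipocyte, 4 Schwann cell, 5 satellite cell and 3 tendon genes. A GAS H3K4me3 peak was at the TSS of 11 of 12 muscle fibre markers, 13 of 15 endothelial, 10 of 11 fibroblast and 2 of 15 macrophage markers, while PIM had one at 3, 7, 4 and 15 of them. In whole tissue, more cells of a type and more mark per cell cannot be told apart.

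No coding TSS was inside 58 of the single-copy domains. In 10 of them one lay within 500 bp of the domain, counted on either side, and in 31 the TSS of a noncoding transcript was inside. Among the latter were the nuclear RNAs Neat1 (13276 bp) and Malat1 (11935 bp). MicroRNA genes started inside 5: Mir1a-1 (9304 bp), Mir1a-2 with Mir1b (6446 bp), Mir22 (6142 bp), Mir199a-2 with Dnm3os (6559 bp) and Mir1192 next to Klf9 (11026 bp). Both loci of miR-1, the most abundant microRNA of striated muscle, were thus among the broad domains listed here. The lincRNA Carmn had 6917 bp, and the noncoding Lncppara lay in a run of 3 domains (6278, 7229 and 9743 bp).

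Some domains stood side by side. Of the single-copy domains, 52 lay within 50000 bp of another, in 22 clusters of which 6 held 3 or 4. This was 11.3% of them, and of the 479 single-copy peaks among the next 500 by width 39 (8.14%) lay as near to another of their own, a difference that was not tested. One of the largest clusters of domains was the fast troponin locus on chromosome 7, with Tnni2, the fast troponin I (chr7:142439829-142446045), Lsp1 (chr7:142470400-142483425), Tnnt3 (chr7:142492206-142502905) and the noncoding Nctc1 (chr7:142551740-142559606). ESC-ser and ESC-2i had no H3K4me3 peak over these 4 domains, and the widest peak of PIM was 1406 bp at Tnni2, 1267 bp at Lsp1 and absent at Tnnt3 and Nctc1. The other cluster of 4 surrounded Per1, a core clock gene (chr11:69094463-69100935), and the clusters of 3 were at Hoxc9 to Hoxc11, Lncppara, Mbnl1, a splicing factor, and Usp2, a ubiquitin protease. The peak caller decides where a peak ends, and 162 of the 500 domains lay within 1000 bp of another GAS H3K4me3 peak. Its part in this was not tested, and the same count over all peaks is not given.

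The active marks of GAS were present at most of these domains. To compare peaks of unequal width, each mark was read in a 1000-bp window centred on the stretch of highest H3K4me3 signal. H3K18la was there in 445 domains (89.0%, 86.0 to 91.5), against 48.4% of all GAS H3K4me3 peaks, and H3K27ac in 438 (87.6%, 84.4 to 90.2), against 54.9%. H3K27me3 was there in 54 (10.8%, 8.37 to 13.8), near its share of 11.1% of all peaks. Both H3K18la and H3K27ac without H3K27me3 was the state of 389 domains (77.8%, against 37.7% of all peaks and 68.6% of the next 500 by width). The gap to other peaks was wider for H3K18la than for H3K27ac: of the 410 domains with a coding TSS 92.4% had H3K18la and 90.2% H3K27ac, whereas of the 11663 other peaks with one 46.0% and 61.0% did, differences of 46.4 (43.3 to 48.8) and 29.3 (25.9 to 31.9) points. The next 500 peaks by width were close to the domains, with 83.2% and 79.8%. Without the multi-copy domains the shares were 93.3% for H3K18la, 91.3% for H3K27ac and 8.03% for H3K27me3.

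**Figure D2:**
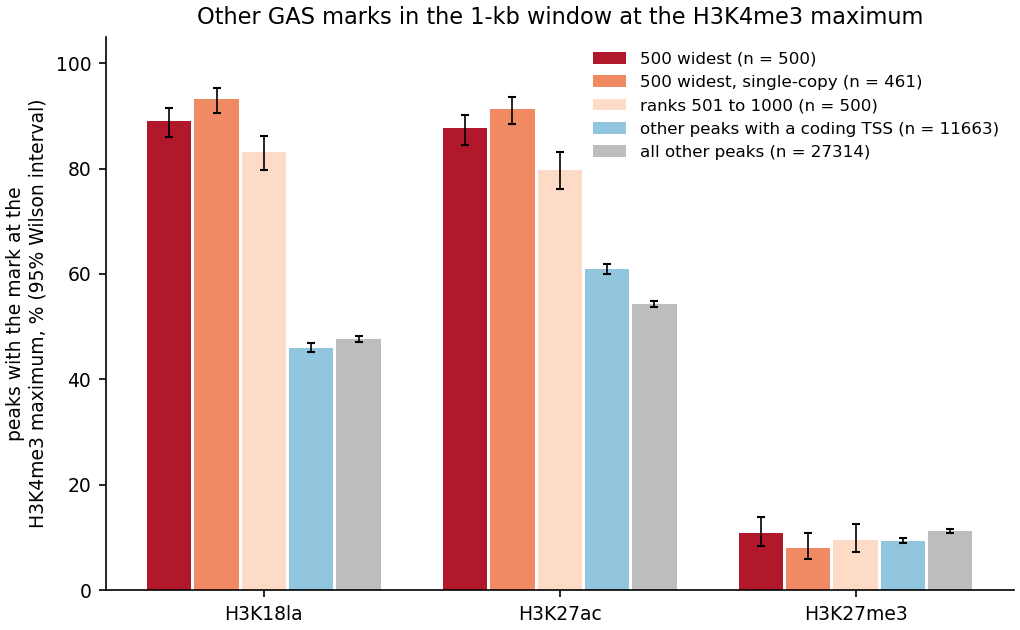
Share of GAS H3K4me3 peaks, in percent with 95% Wilson intervals, that had an H3K18la, H3K27ac or H3K27me3 peak of GAS in the 1000-bp window at the H3K4me3 maximum, for the 500 widest, the 461 of them in single-copy sequence, the next 500 by width (ranks up to 1000), other peaks with a coding TSS and all other peaks. H3K18la stood at 89.0% in the 500 widest and 46.0% in other peaks with a coding TSS, whereas H3K27me3 lay between 8.03% and 11.1% in every class.

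Both active marks also filled most of the domain. H3K27ac covered a mean of 81.4% of the bases of a domain and H3K18la 77.3%, and both covered every base in 118 domains (23.6%, against 19.1% of all peaks). In the other peaks with a coding TSS the means were 52.9% and 35.0%. H3K27me3 covered 9.59% of the domain bases and 7.65% of those of the other peaks with a coding TSS. The GAS lists differed in size, with 197 Mb for H3K27ac, 123 Mb for H3K18la and 138 Mb for H3K27me3. With each list cut to its strongest 52.8 Mb, the size of the H3K4me3 list, mean coverage changed order, to 58.2% for H3K27ac and 64.1% for H3K18la. The shares at the maximum were then 69.6% for H3K18la, 58.6% for H3K27ac and 6.8% for H3K27me3.

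The reach of the marks was then read at fixed distances from the TSS. At 4950 bp downstream, H3K4me3 of GAS covered 58.6% of the 353 single-copy domains with 1 coding gene, H3K18la 66.6% and H3K27ac 79.9%. At 6950 bp downstream the values were 22.1%, 51.3% and 68.8%, and at 4950 bp upstream 14.2%, 37.4% and 55.2%. With the H3K18la and H3K27ac lists cut to 52.8 Mb as above, chosen after seeing the data, they covered 55.5% and 59.2% at 4950 bp downstream, 40.8% and 54.1% at 6950 bp and 29.2% and 41.9% upstream, so H3K18la no longer exceeded H3K4me3 at the first of these distances. In the 10321 other peaks of this kind H3K18la covered 13.3% and H3K27ac 28.7% at 4950 bp downstream. H3K4me3 of PIM covered 26.6% of the 353 at that distance, ESC-ser 12.7% and ESC-2i 14.4%, while at 50 bp downstream they covered 66.6%, 63.7% and 73.7%. The reach of GAS H3K4me3 itself follows from the choice of its widest peaks.

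**Figure D3:**
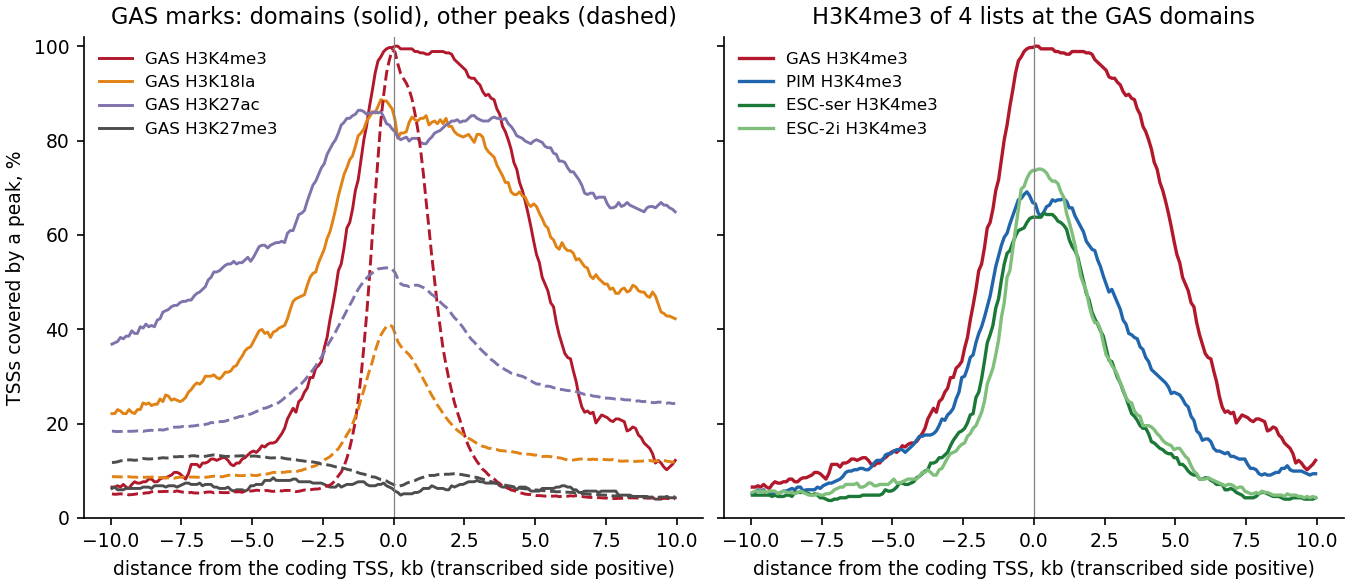
Share of TSSs, in percent, covered by a peak at each distance in kb from the coding TSS (the transcribed side is positive), for single-copy GAS H3K4me3 peaks with 1 coding gene. Left, the 4 GAS marks over the 353 domains (solid) and 10321 other peaks (dashed), right, H3K4me3 of GAS, PIM, ESC-ser and ESC-2i over the 353 domains. At 4950 bp downstream GAS H3K4me3 covered 58.6% and that of PIM 26.6%.

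The same places mostly had H3K4me3 in the other cell types too. An H3K4me3 peak overlapped 325 domains in ESC-ser (65%, against 38.9% of all GAS H3K4me3 peaks), 388 in ESC-2i (77.6%, against 48.8%) and 400 in PIM (80.0%, against 55.3%). The other GAS peaks with a coding TSS had such an overlap in 69.2%, 84.8% and 85.0%, and the domains with a coding TSS in 69.8%, 81.2% and 80.5%, differences of 0.546 points (-4.14 to 4.87), -3.60 points (-7.72 to -0.0577) and -4.53 points (-8.69 to -0.927). The widest peak over the domain had a median of 4723 bp in ESC-ser, 3775.5 bp in ESC-2i and 5174 bp in PIM, where the GAS domains concerned had medians of 6865, 6923 and 6943 bp. It was at least as wide as the GAS domain in 65 of 325, 38 of 388 and 106 of 400. Since the domains were chosen as the widest of GAS, narrower peaks elsewhere follow from that choice, and no difference in width between the cell types is read from them. The median ratio of width to GAS was 0.674, 0.520 and 0.728 over the domains and 0.841, 0.665 and 0.908 over the next 500 peaks. At least 50% of the bases were covered in 218 domains by ESC-ser (43.6%, 39.3 to 48, against 36.9% of all peaks), in 213 by ESC-2i (42.6%, 38.3 to 47.0, against 44.0%) and in 303 by PIM (60.6%, 56.3 to 64.8, against 52.2%). A wide domain is harder to cover than a narrow one, so these shares are set by width as well as by place.

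Some domains were among the broadest of another cell type as well. The overlapping peak was itself one of the 500 widest of its list in 60 domains for ESC-ser (12.0%, against 2.78% of all peaks), 75 for ESC-2i (15%, against 2.11%) and 117 for PIM (23.4%, against 2.48%), of which 95 lay in single-copy domains. Over the next 500 peaks by width the shares were 7.4%, 8.8% and 12.4%, and the differences 4.6 points (0.926 to 8.32), 6.2 points (2.19 to 10.2) and 11 points (6.27 to 15.7). Domains are wider than those peaks, and the part of width in these differences was not tested. In 325 domains it was so in none of the 3, and in 15 it was so in all of them. The 5 widest of these 15 were the stretch next to Sfi1 (21995 bp), a multi-copy stretch of chromosome 6 (17024 bp), Neat1 (13276 bp in GAS, 13304 in ESC-ser, 10844 in ESC-2i and 11398 in PIM), Tnrc18 (12159, 13753, 12622 and 12337 bp), which encodes a chromatin protein, and Malat1 (11935, 15758, 7549 and 8227 bp). Tnrc18 thus had nearly the same width in all 4 lists, whereas Malat1 was widest in ESC-ser.

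Sorted by which of the other lists had any H3K4me3 peak, the domains fell into 5 kinds. All 3 lists had one in 301 domains (60.2%, against 32.6% of all GAS peaks), none had one in 60 (12.0%, against 36.3%), PIM alone in 49 (9.8%, against 13.2%), the stem cells alone in 40 (8%, against 8.36%), and PIM with 1 of the stem cell lists in 50 (10%, against 9.58%). The next 500 peaks by width had none of the 3 lists in 11.6% and all in 63.2%. Among domains with a coding TSS, no other list had a peak in 46 of 410 (11.2%), against 6.39% of the other peaks with a coding TSS, a difference of 4.83 points (2.09 to 8.28).

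The domains without H3K4me3 in the other 3 lists were led by muscle genes. The 5 widest were Asb2 (15150 bp), Myl1 (13620 bp), a stretch in an intron, with Nedd4 as the nearest coding gene (chr9:72689406-72702923, 13518 bp), Atp2a1 (12032 bp) and Tnnt3 (10700 bp). Mylk2, Ppp1r3a, Ttn, Neb, Myh4, Pygm, the muscle glycogen phosphorylase (7149 bp), Ckm, muscle creatine kinase (6874 bp), Casq1, the calcium store protein calsequestrin (6020 bp), Pvalb, parvalbumin (6303 bp), and Trim63, a ubiquitin ligase of atrophy (6479 bp), were of this kind as well. It held 9 of the 19 sarcomere domains, 5 of the 8 of calcium handling and 4 of the 13 of the glycolysis and glycogen list, Ckm and Ckmt2 among these 4. It held none of the 12 of immediate early genes or the 8 of the circadian list. Dcn, a fibroblast marker, was also of this kind. H3K18la was at the maximum in 58 of the 60 (against 48.4% of all GAS H3K4me3 peaks), H3K27ac in 56 (against 54.9%) and H3K27me3 in 3 (against 11.1%). In the 46 with a coding TSS, H3K18la covered a mean of 88.7% of the bases and H3K27ac 90.3%. The means were 56.5% and 45.9% in the 745 other GAS peaks with a coding TSS and no H3K4me3 in the other 3 lists. A CpG island was in 5 of the 60 (8.33%, 3.61 to 18.1), against 43.0% of all GAS H3K4me3 peaks and 280 of the 301 domains with H3K4me3 in all lists (93.0%, 89.6 to 95.4). The median observed over expected CpG ratio was 0.224 over the 60 and 0.469 over the 301. Islands were also rare in the narrower peaks of this kind. None was in 645 of the 745, whose median ratio was 0.294, and none in 41 of the 46 domains. Width was alike in the 60 and the 301, with medians of 6761.5 and 6888 bp, and so was the downstream share, 72.2% and 72.1%.

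The domains with H3K4me3 in all lists were led by Sfi1, the stretch next to it and 3 multi-copy stretches, 1 on chromosome 1 (17800 bp) and 2 on chromosome 6 (17431 and 17024 bp). Bcl6, whose domain also held Gm37419 (16654 bp), Nfib, a nuclear factor I gene (16252 bp), Zeb2 (15744 bp) and Neat1 followed in single-copy sequence. At Bcl6 the widths were 8050 bp in ESC-ser, 3179 in ESC-2i and 8199 in PIM. At Nfib they were 6600, 6415 and 2835 bp and at Zeb2 2711, 2670 and 8489 bp. The order of the other 3 lists differed between these genes. Domains of the circadian list, with Tspan4 counted, and of the immediate early genes were nearly all of this kind, 7 of 8 and 12 of 12. Zfp36 was 17928 bp wide in PIM against 8886 bp in GAS, and Nr1d1 5562 bp in PIM, 3133 in ESC-ser and 3157 in ESC-2i against 6793 bp in GAS.

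Domains shared with PIM alone numbered 49, of which 16 were multi-copy. The 5 widest were the second C130026I21Rik domain (19037 bp in GAS, 24923 in PIM), a stretch next to it (17909 and 17105 bp) and Zfp988 (15073 and 11292 bp), which were multi-copy, Lsp1, and a multi-copy stretch of chromosome 4 (12493 and 22013 bp). The widest in single-copy sequence were Lsp1 (13026 bp in GAS, 1267 in PIM), an intergenic stretch of chromosome 16 (10366 and 10445 bp), Pde4b, a phosphodiesterase (10366 and 5642 bp), Filip1 (9916 and 1579 bp) and Coq8a, of coenzyme Q synthesis (8354 and 2340 bp). The domains shared with stem cells alone were led by Mn1 (10140 bp in GAS, 6441 in ESC-ser and 5883 in ESC-2i), Gm5105 with 1110002E22Rik (10085, 0 and 6179 bp), a stretch near Lncppara (9743, 3326 and 3415 bp), Ank1, an ankyrin (9504, 0 and 2663 bp), and the Mir1a-1 locus (9304, 0 and 2487 bp). ESC-2i had the peak without ESC-ser at 3 of these 5.

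**Figure D4:**
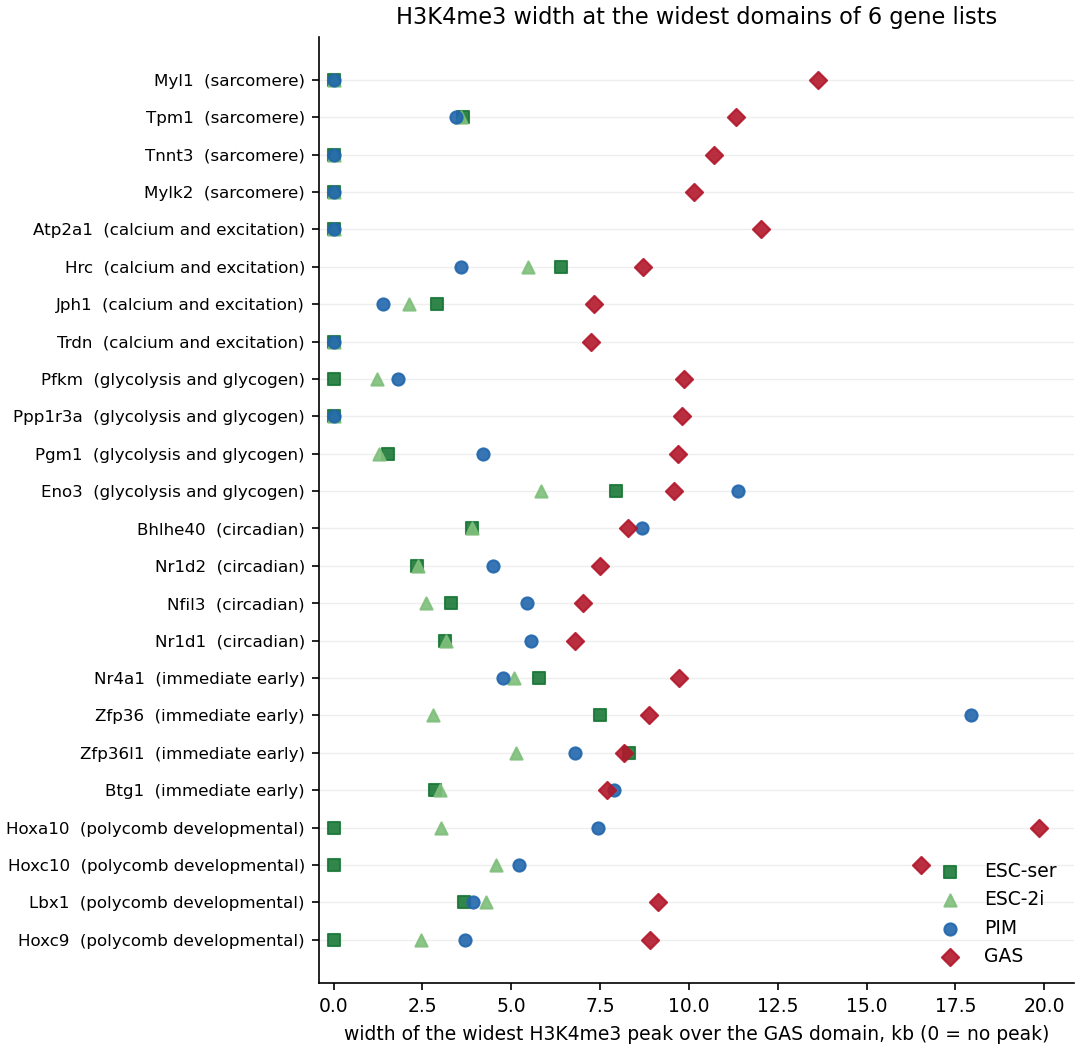
Width in kb of the widest H3K4me3 peak over the GAS domain in GAS (diamonds), PIM (circles), ESC-ser (squares) and ESC-2i (triangles), for the 4 widest domains of 6 gene lists, with 0 where the list had no peak and markers at 0 on top of each other. At Myl1, Tnnt3, Mylk2, Atp2a1, Trdn and Ppp1r3a only GAS is above 0, whereas the circadian and immediate early genes have a peak in all 4 lists.

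A peak over a domain can belong to a neighbouring gene. The Eno3 domain also held Pfn1, profilin, and had 11372 bp in PIM, 7961 in ESC-ser and 5824 in ESC-2i. At the TSS of Eno3 itself PIM had no peak. Likewise the Hrc domain, which also held Trpm4, had 3580 bp in PIM, 6385 in ESC-ser and 5475 in ESC-2i, while none of these lists had a peak at the TSS of Hrc. Conversely, PIM had no peak over the Neb domain but had one of 1279 bp at a coding TSS of Neb outside it.

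H3K18la and H3K27me3 of other cell types, which took no part in the choice, were read in the same 1000-bp windows. H3K18la of cultured myotubes (MT) was there in 356 of the 500 domains (71.2%, 67.1 to 75), against 36.2% of all GAS H3K4me3 peaks, that of myoblasts (MB) in 167 (33.4%, against 10.9%), of white adipocytes (ADIPO), which came from 10-week-old female mice carrying AdipoCre-NuTRAP, in 324 (64.8%, against 41.7%), of PIM in 248 (49.6%, against 32.1%), of bone marrow derived macrophages (BMDM) in 152 (30.4%, against 14.5%), of ESC-ser in 234 (46.8%, against 28.8%) and of ESC-2i in 257 (51.4%, against 33.7%). For the 410 domains with a coding TSS against the other peaks with one, the largest differences were those of MT (74.4% against 42.2%), 32.2 points (27.7 to 36.3), and MB (36.6% against 9.99%), 26.6 points (22.04 to 31.4), and the smallest that of PIM (51.5% against 45%), 6.47 points (1.56 to 11.4). The next 500 peaks by width were near the domains, with 69.4% for MT. The MB and BMDM lists came from 1 sample each and those of the other cell types from 2.

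H3K18la of the other cell types was then counted at the domains without H3K4me3 in PIM and stem cells. Of the 60, 44 had it in MT (73.3%, 61.0 to 82.9), 11 in MB (18.3%, 10.6 to 29.9), 20 in ADIPO (33.3%, 22.7 to 45.9), 4 in ESC-ser, 3 in ESC-2i, 2 in PIM and 0 in BMDM, which allows a share of up to 5% by the limit of 3 counts and of up to 6.02% by the Wilson interval. Of the 60, 46 had a coding TSS, and their shares were 73.9% in MT, 19.6% in MB and 34.8% in ADIPO. Of the 745 other GAS peaks with a coding TSS and no H3K4me3 in those lists, 37.2% had H3K18la in MT, 11.0% in MB, 30.7% in ADIPO, 11.5% in ESC-ser, 10.9% in ESC-2i, 4.70% in PIM and 1.21% in BMDM. H3K4me3 of ESC-ser, ESC-2i and PIM defined these kinds, so the H3K18la shares in the same 3 cell types are not independent of the split and nothing is read from them, whereas MT, MB, ADIPO and BMDM took no part in it. Of the 301 domains with H3K4me3 in all lists, 79.1% had H3K18la in MT, 41.2% in MB, 80.4% in ADIPO, 67.1% in ESC-ser, 73.8% in ESC-2i, 63.1% in PIM and 42.5% in BMDM. The MB list covered 40.5 Mb and that of MT 137 Mb, and the part of list size in the gap between them was not tested.

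**Figure D5:**
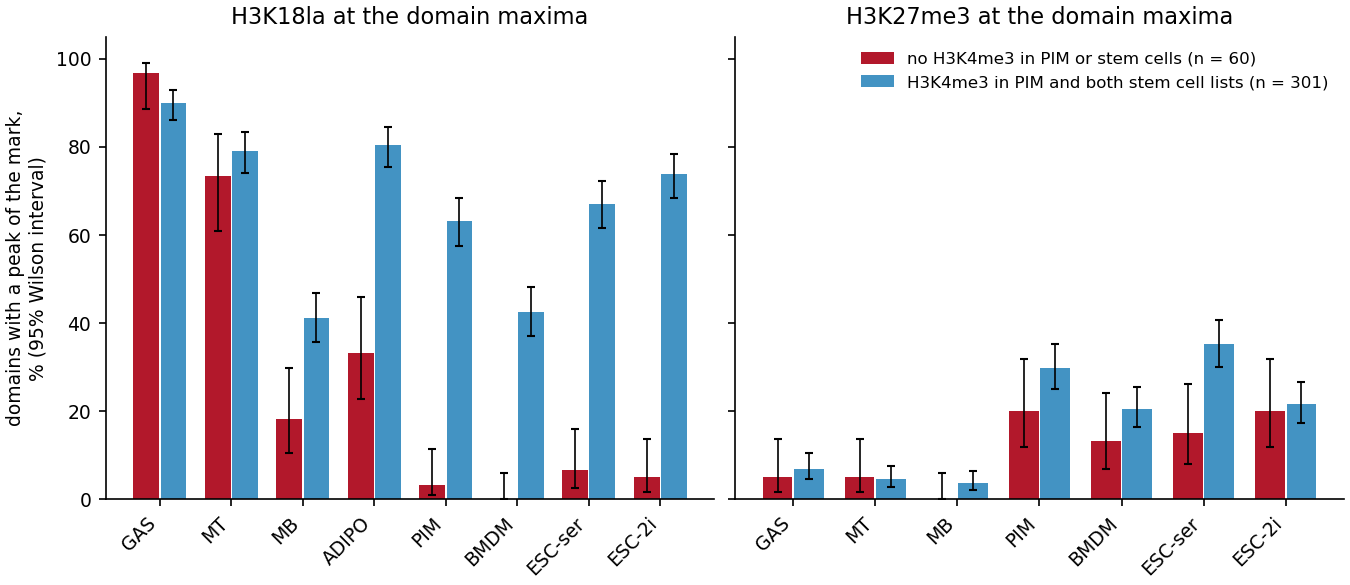
Share of GAS domains, in percent with 95% Wilson intervals, with an H3K18la (left) or H3K27me3 (right) peak of each cell type at the maximum, for the 60 domains without H3K4me3 in PIM, ESC-ser and ESC-2i (red) and the 301 with it in all of them (blue). H3K18la of MT is at 73.3% and 79.1% of the 2 kinds and that of ADIPO at 33.3% and 80.4%, and H3K4me3 of ESC-ser, ESC-2i and PIM was used to split them.

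H3K27me3 of the other cell types was counted at the same places. It was at the maximum in 184 domains in ESC-ser (36.8%, against 21.1% of all GAS H3K4me3 peaks), 142 in ESC-2i (28.4%, against 16.1%), 167 in PIM (33.4%, against 22.1%) and 121 in BMDM (24.2%, against 15.1%). In MB it was 29 (5.8%, against 6.38%) and in MT 37 (7.4%, against 9.28%). Since the domains were chosen by H3K4me3 of muscle, no difference between muscle and the other cell types is read from these shares. For the 410 domains with a coding TSS against the other peaks with one, the difference was 14.1 points in ESC-ser (37.6% against 23.4%, 9.50 to 18.96) and 10.6 in PIM (34.6% against 24%, 6.13 to 15.4), and in MT (6.59% against 8.92%) -2.33 points, with an interval from -4.42 to 0.539. For all 500 domains against the next 500 peaks by width it was 3.4 points in ESC-ser (-2.51 to 9.28), 8.4 in ESC-2i (3.09 to 13.6), 5.4 in PIM (-0.318 to 11.1) and 3.6 in BMDM (-1.57 to 8.75), so that ESC-2i alone had an interval above 0. The 60 domains seen in GAS alone had H3K27me3 in 9 for ESC-ser and 12 for PIM, against 106 and 90 of the 301. The shares were 15% (8.10 to 26.1) and 35.2% (30.04 to 40.8) for ESC-ser, and 20% (11.8 to 31.8) and 29.9% (25.0 to 35.3) for PIM. H3K4me3 of these cell types made the split, so nothing is read from these gaps.

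H3K27me3 of the muscle itself covered at least 50% of the bases of 46 domains (9.2%), near its share of 9.59% of all GAS H3K4me3 peaks. Of the 46, 14 were multi-copy and 9 of the others had no coding TSS. The 5 widest were Sfi1, the chromosome 9 stretch, the stretch next to Sfi1, Sp110 and a stretch of chromosome 1 (17800 bp). In 20 of the 46, H3K18la and H3K27ac also both covered at least 50%, which they did in 77.6% of the 500 domains and 34.2% of all GAS H3K4me3 peaks. The 23 single-copy domains with a coding TSS included En1, a homeobox gene (9676 bp, 76.4% covered), Wnt5a, a signalling ligand (8947 bp, 69.1%), Tal1, a blood and vessel regulator (7291 bp, 100%), and Acta1 (6400 bp, 76.1%). H3K27me3 of ESC-ser was at the maximum in 22 of these 23, against 36.8% of the 500 domains and 21.1% of all peaks, and H3K27ac of GAS in 10, against 87.6% and 54.9%. At Wnt5a neither H3K18la nor H3K27ac covered any base, whereas at Acta1 they covered 61.6% and 100%. Marks of the same cells and of different cells cannot be told apart in whole tissue.

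Domains without H3K18la at the maximum numbered 55, of which 24 were multi-copy. The 5 widest were multi-copy stretches without a coding TSS (12493 to 17800 bp). The 5 widest in single-copy sequence were En1, Wnt5a, Nr3c1, the glucocorticoid receptor (8734 bp), a stretch of chromosome 12 without a coding TSS (8422 bp) and Cpeb3, a translation regulator (7693 bp). Of the 31 single-copy ones, 29 held a CpG island, 25 had H3K4me3 in all other lists, 16 had H3K27ac and 9 H3K27me3 at the maximum. Over all 461 single-copy domains these shares were 72.0%, 63.1%, 91.3% and 8.03%. At Nr3c1 and Cpeb3 H3K27ac covered 94.7% and 93.2% of the bases and H3K18la 38.5% and 24.5%, so H3K18la lay in the domain but away from the H3K4me3 maximum.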

How the data were processed

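CUT&Tag profiles of histone marks were analysed as 24 lists of peaks, of which the 4 H3K4me3 lists, the GAS lists and the H3K18la and H3K27me3 lists of the other cell types were used here. According to the methods and the submitters' processing notes, the authors trimmed reads with Trim Galore 0.6.6, aligned them to mm10 with Bowtie2 2.4.4, merged the samples of a group where there was more than 1 and called peaks with SEACR 1.3 in stringent mode, keeping the top 1% of regions. The deposited signal of a peak is its summed fragment coverage, in whole numbers not scaled for depth, and whether duplicates were removed is not given in the sources used here. The read numbers that the study lists per sample were not used here. A blacklist filter is described for later steps only, and repeated sequence was present in the lists.

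The 500 widest GAS H3K4me3 peaks on chromosomes 1 to 19 were taken. These domains and the gene lists were chosen with earlier results of these data known. The lists held 451 entries. Coding TSSs came from GENCODE M21. A mark was called at the maximum if its peak overlapped, by 1 bp or more, the 1000-bp window around the midpoint of the region of highest signal. A CpG island had a length of 200 bp or more, 50% or more G and C, and a ratio of observed to expected CG of 0.6 or more. Multi-copy sequence was found from 50-bp words taken every 10 bp, which misses copies absent from the reference.

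Genes were named by rule: the coding genes of the 10 widest domains, ranks 499 to 502, the 4 widest domains of each gene list, the 5 widest of each pattern of H3K4me3 in the other lists, of those shared by the 500 widest of all 4 lists, with H3K27me3 over at least 50% of bases, and without H3K18la. Further names were chosen after their values were seen. Some domains that the rule names are not reported here. Each group is 1 list, so no test over replicates was made. Shares carry 95% Wilson intervals and differences Newcombe intervals, and both cover counting error only. The counting of overlaps and covered bases and the choice of the widest peaks were tested on simulated peaks. Alternatives were 1000 peaks, selection by total signal, other windows, limits and island definitions, equal list sizes and, chosen after seeing the data, leaving out multi-copy domains and comparing with other TSS peaks. Python 3.11.15, numpy 2.4.6 and pandas 2.3.3 were used.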

Additional observations from a re-analysis of the deposited data

Results flagged for a closer look

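Chromosomes outside the selection held peaks of the same size. On chromosome X, 9 of 1101 GAS H3K4me3 peaks were at least as wide as the narrowest domain. The widest, 10487 bp, held the start sites of Apex2, a DNA repair endonuclease, and Pfkfb1, a regulator of glycolysis. Phka1, the muscle subunit of phosphorylase kinase, had 7139 bp, Dmd, dystrophin, 6759 bp and Stag2, of the cohesin complex, 6244 bp, and the other 5 held no coding TSS. The mitochondrial genome formed 1 peak of 16299 bp. No control library was used here against which to set these values. On chromosome Y none of 22 peaks was as wide.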

How the results depend on the processing

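Of 72 alternatives tried for 15 results, 44 stayed within the tolerance of the value reported (the 95% interval of a share, 5 points for a mean or the downstream share, 1.5-fold for a width) and 28 did not. Leaving out multi-copy domains, chosen after seeing the data, gave 93.3% for H3K18la, 91.3% for H3K27ac and 8.03% for H3K27me3 at the maximum, and 87.4% with a coding TSS. Cutting the mark lists to the size of the smallest GAS list gave 69.6%, 58.6% and 6.8% at the maximum and mean coverages of 64.1% for H3K18la and 58.2% for H3K27ac. Choosing the 500 peaks of largest total signal gave 96.4%, 96.0% and 15.8% at the maximum, a mean H3K27ac coverage of 90.0%, and 53.6%, 56.8% and 74.6% of domains covered over at least 50% of their bases by H3K4me3 of ESC-ser, ESC-2i and PIM. The 1000 widest peaks gave 83.7% with H3K27ac and 50.3%, 48.4% and 66.3% covered. A limit of 25% of the bases gave 59.8%, 69.8% and 74.4%, and PIM cut to the smallest H3K4me3 list 54.4%. Requiring 50% of the window gave 84.2% for H3K27ac, and a 3000-bp window 14.0% for H3K27me3. TSSs of all annotated transcripts gave 91.4%. A stricter island definition gave 37.0%, with at least 500 bp and higher limits for G and C content and for the CG ratio as well. The cause of the other shifts was not tested.

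No paired analysis was possible because each group has a single list of peaks, with the samples merged where there was more than 1, and no value without one of the samples exists for the same reason. Widths follow the peak caller and depth, which the lists do not give.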
